A study of Mus musculus with 62 samples.

Results

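Cytosolic ribosomal proteins are the protein part of the ribosome, the machine that translates messenger RNA in the cytoplasm. The large subunit carries the proteins named Rpl, forms peptide bonds and bears a flexible stalk that recruits elongation factors, and the small subunit carries the proteins named Rps and decodes the message. Most of their messenger RNAs belong to the TOP class, which begins with a C followed by a run of pyrimidines and whose translation is controlled together through mTOR and Larp1, and in brain they are among the abundant short transcripts of neurons and glia. Genes were taken where the Ensembl identifier maps to a protein-coding symbol that begins with Rpl or Rps and a digit, or to Rplp0, Rplp1, Rplp2 or Rpsa, leaving out names of pseudogenes and the S6 kinases. Of 86 such genes in the annotation, 82 were in both count tables and form the set described here, out of 12483 genes in either table. Rpl24, Rpl10l, Rpl39l and Rpl3l were not analysed here. The 82 genes comprise 45 large subunit genes, 31 small subunit genes and 6 paralogs or others, and they lie on 19 chromosomes with 4 on the X chromosome. The name rule also took in Rps19bp1, which encodes a protein that binds Rps19 and is not itself a part of the ribosome.

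The 62 libraries were made from tissue punches of the suprachiasmatic nucleus (SCN, the master circadian clock; n = 19), the nucleus accumbens (NAc, a reward region of the ventral striatum; n = 26) and the prefrontal cortex (PFC; n = 17) of 26 C57BL/6J mice, 1 library per region and mouse. The methods name no transgene. Mice had gone through circadian rhythm disruption (CRD, 12 h shifts of the light cycle every 3 days) in adolescence, from postnatal day 28 to 37, or were handled controls on a fixed light cycle. The sample labels also name mice disrupted as adults (day 62 to 71), whereas the study's methods for tissue name only the adolescent groups, so whether libraries of adult CRD are among the 62 is not settled here. Brains were collected about 4 weeks later at ZT6, that is 6 h after lights on. Sample labels name a region and a mouse but neither exposure nor sex, so a region stands here for a mixed set of mice, exposure and sex could not be tested, and the spread within a region holds any such effects. Numbers of mice form a pair of ranges with a gap between J1021 and J1140, called lower and upper here and treated as possible batches.

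Total counts per library were 16496666 to 35389742 (SCN), 28879724 to 60009482 (NAc) and 31216225 to 50333579 (PFC). A large part of each library fell on the rRNAs of the mitochondrial ribosome, mt-Rnr1 and mt-Rnr2: this share was 20.5 to 51.6% across SCN libraries (median 38.2%), NAc libraries had 39.0 to 69.3% (median 49.4%) and PFC libraries 42.0 to 59.1% (median 46.6%). Levels are therefore given as coding CPM, that is CPM (counts scaled to a common library total) with only the nuclear protein-coding genes in the total. The regions carried their markers: a list of 7 striatal neuron genes summed to 0.293 to 0.768% of coding counts in the NAc and to 0.0103 to 0.0280% in the PFC, and all 7 were higher in the NAc. A list of 6 cortical glutamatergic neuron genes summed to 0.197 to 0.220% in the PFC, and to 0.00287 to 0.111% in the NAc, where its range was wide. The list of 9 SCN neuron genes summed to 0.0214 to 0.113% in the SCN, lowest in SCN J1199, which also had the highest striatal sum of the SCN libraries, 0.148%. SCN J1157 and SCN J1159 stood apart with the 2 lowest mitochondrial rRNA shares, 20.5% and 24.8%, and the 2 highest total counts. They also had the 2 lowest shares of a list of 3 nuclear rRNA-like genes, 8.96% and 9.78% of the total count. That share reached 19.3% in SCN J1017, and the relation of the members to it was not tested. Depth and these rRNA shares cannot be told apart in what SCN J1157 and SCN J1159 contribute.

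The starts of 6 genes are shown because they carry the sequence feature the class is known for, or lack it, among genes described below. Each is the 15 bases before and the 15 bases from the RefSeq start (GRCm38.p6), 5′ to 3′, with the pyrimidine run that begins at the start in capitals.
Rps27 (chr3:90213634-90213663, minus strand): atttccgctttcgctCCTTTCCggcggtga
Rps27rt (chr9:114982725-114982754, minus strand): agaacttatcccttgCTTTCCggcggtgac
Rps6 (chr4:86857353-86857382, minus strand): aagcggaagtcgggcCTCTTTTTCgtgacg
Rplp2 (chr7:141447636-141447665, plus strand): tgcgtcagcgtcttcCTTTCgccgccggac
Rpl28 (chr7:4792950-4792979, plus strand): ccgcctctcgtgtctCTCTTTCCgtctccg
Rpsa (chr9:120127751-120127780, plus strand): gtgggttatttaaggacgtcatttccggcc
Rps27, a zinc-finger protein of the small subunit, and Rps27rt, a copy of it on another chromosome, shared a stretch of 14 bases from the start, ctttccggcggtga, which begins at position 2 of Rps27 and position 1 of Rps27rt. Rpsa, described below, has no such run at this start. Of 62 members with a promoter in the RefSeq table, 14 had a C at an annotated start followed by at least 4 further pyrimidines (22.6%), against 3.01% of all 27025 genes with a promoter there and 3.06% of the other genes of the NAc and PFC table. Within 10 bases of a start the run occurred in 59.7% of members and 34.4% of all genes. A pair of promoter motifs, whose letters can overlap at a shared AA, was read on both strands from 250 bases before to 50 after the start. CCGGAA was present in 56.5% of members and 16.7% of all genes (30.9% of the other genes of the table), and AAGATGG in 16.1% of members and 7.28% of all genes. Starts are those of the annotation, so a run a few bases away from an annotated start counts only in the wider search, and these shares are descriptions with no test.

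Ribosomal protein messages made up a median of 2.92% of coding counts across SCN libraries (1.58 to 4.06%), 1.90% across NAc libraries (1.36 to 3.46%) and 1.65% across PFC libraries (1.35 to 2.52%). As a share of the total count, which includes the mitochondrial rRNA, the ranges were narrower, 0.957 to 1.57%, 0.547 to 0.926% and 0.636 to 0.785%. The median coding CPM of a gene was higher in the SCN than in the NAc for 77 of the 82 genes, with a median ratio of 1.55. The ratio ran from 0.854 for Rpl12, a large subunit protein at the base of the stalk, to 3.58 for Rpl17. Against the PFC the largest ratio was that of Rps12, 3.97. Values of the SCN come from a separate table, so they are set beside the others with no test. None of the 82 genes was highest in the PFC.

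Per kilobase of exon, Rplp1, a stalk protein, was the highest gene in every region, with medians of 1912 (SCN), 2171 (NAc) and 1564 (PFC) coding CPM per kb. The median over the 82 genes was 151.8, 100.1 and 81.7 coding CPM per kb. Rps27l, a paralog of Rps27 known as a p53 target, was the lowest in every region, with 13.1, 8.09 and 8.54 coding CPM per kb. Rpl7l1, a paralog of Rpl7, was also among the 3 lowest in each region, with 16.9, 11.6 and 11.9. Exon lengths are those of all annotated exons, so genes with many annotated isoforms come out lower.

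Single genes spread over a wide range within a region, and the same few libraries held the ends. Rpsa, the small subunit protein also known as the laminin receptor precursor, had a median of 1418 coding CPM among SCN libraries (746.2 to 1940), 1024 among NAc libraries (744.4 to 1943) and 770.3 among PFC libraries (625.0 to 1037). Rps6, the substrate of the S6 kinases, had medians of 557.0 (330.0 to 775.6), 266.2 (190.6 to 399.9) and 208.5 coding CPM (164.3 to 317.1) in the same order. Rpl39, a small X-linked protein of the exit tunnel, had the widest range of any member in the NAc, from 8.56 to 76.7 coding CPM (median 30.0), an 8.96-fold range, against 1.60-fold for Rpl7l1. The largest value fell in NAc J1019 for 54 of the 82 genes and in PFC J1160 for 73, and the smallest fell in SCN J1157 for 69. The other 3 X-linked members did not share the range of Rpl39: Rps4x ran from 123.8 to 304.2 coding CPM in the NAc, Rpl10 from 137.4 to 426.5 and Rpl36a from 67.5 to 259.3.

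**Figure D1:**
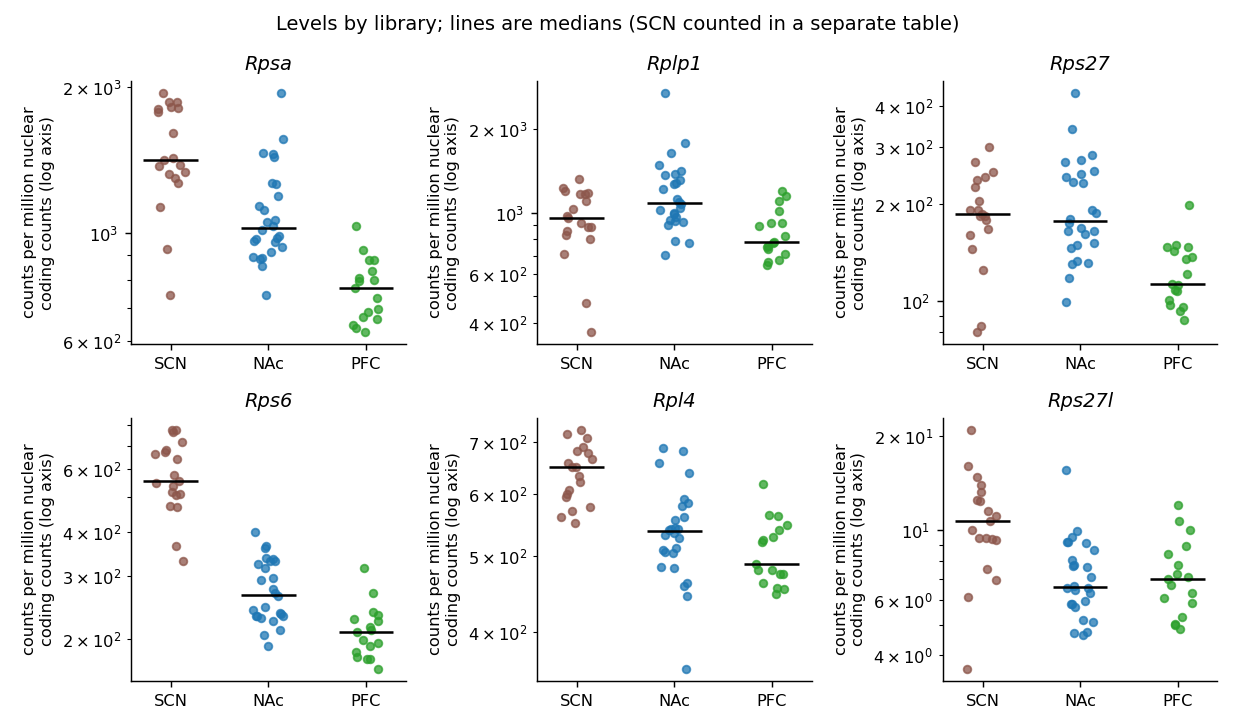
Level of 6 ribosomal protein genes in every library, as coding CPM (nuclear protein-coding genes as the total) on log axes that do not start at 0, by region (SCN 19, NAc 26 and PFC 17 points; lines are medians). Rpsa and Rps6 have their highest medians in the SCN, 1418 and 557.0, while Rpl4 covers a narrow range in the SCN, from 551.4 to 724.9.

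On the scale used for spread, log2 CPM after TMM scaling with a prior count of 2, the median SD of the 82 genes across libraries was 0.34 for SCN, 0.36 for NAc and 0.23 for PFC libraries. Over all rows the median SD was 0.29, 0.26 and 0.19. The SD of the NAc exceeded that of the PFC for all 82 genes and was higher in the SCN than in the PFC for 78, whereas the SCN exceeded the NAc in 34. The biological coefficient of variation of edgeR had medians of 0.231, 0.243 and 0.157 over the members, and 0.189, 0.170 and 0.118 over all rows. Among the genes that varied most were Rpl37a (SD 0.51), Rps27l (0.50) and Rps27rt (0.48) in the SCN, Rpl39 (0.61) and Rps28 (0.55) in the NAc, and Rps27l (0.37), Rps12 (0.32) and Rpl39 (0.31) in the PFC. Those that varied least were Rpl4 (0.09), Rpl7l1 (0.14) and Rpl28 (0.14) in the SCN, Rpl7l1 (0.17), Rpl6 (0.20) and Rpl4 (0.21) in the NAc, and Rpl29 (0.11), Rpl6 (0.11) and Rpl4 (0.12) in the PFC. Rpl4, a large subunit protein whose extension lines the exit tunnel, was thus among the 3 least variable members in each region.

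The members varied together across libraries. The median of all pairwise correlations was 0.93 for SCN, 0.79 for NAc and 0.86 for PFC libraries, against -0.00 between rows in general, and the first principal component held 91.0%, 77.2% and 83.5% of the variance of the 82 genes. These correlations are across libraries that differ in depth and rRNA share, and members share both. A gene correlated with the mean of the others at a median of 0.97 for SCN, 0.90 for NAc and 0.94 for PFC libraries, and at over 0.8 for 76, 62 and 71 genes. Ribosomal proteins outside the name rule were read the same way. Fau, which encodes a ubiquitin-like protein fused to a small subunit protein, followed the mean of the 82 genes at 0.98, 0.97 and 0.97, and Rack1, a scaffold on the small subunit, at 0.98, 0.90 and 0.95.

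A handful of members did not follow the rest. Rps19bp1 correlated with the mean of the others at 0.32 for SCN, -0.30 for NAc and -0.49 for PFC libraries. Rpl29, a large subunit protein known as a heparin-binding protein, was at 0.30, 0.23 and 0.05. Rpl7l1 was at 0.62, 0.34 and 0.28, and Rpl4 at 0.64, -0.05 and 0.42. Rpl28, which was among the 3 least correlated in the SCN at 0.55, reached 0.65 in the NAc and 0.71 in the PFC. Rpl28 carries the pyrimidine run at its start shown above. After the linear relation to mitochondrial rRNA share was removed from each gene, the median pairwise correlation was 0.88 for SCN, 0.64 for NAc and 0.53 for PFC libraries, and the first principal component held 83.9%, 57.5% and 48.7%.

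**Figure D2:**
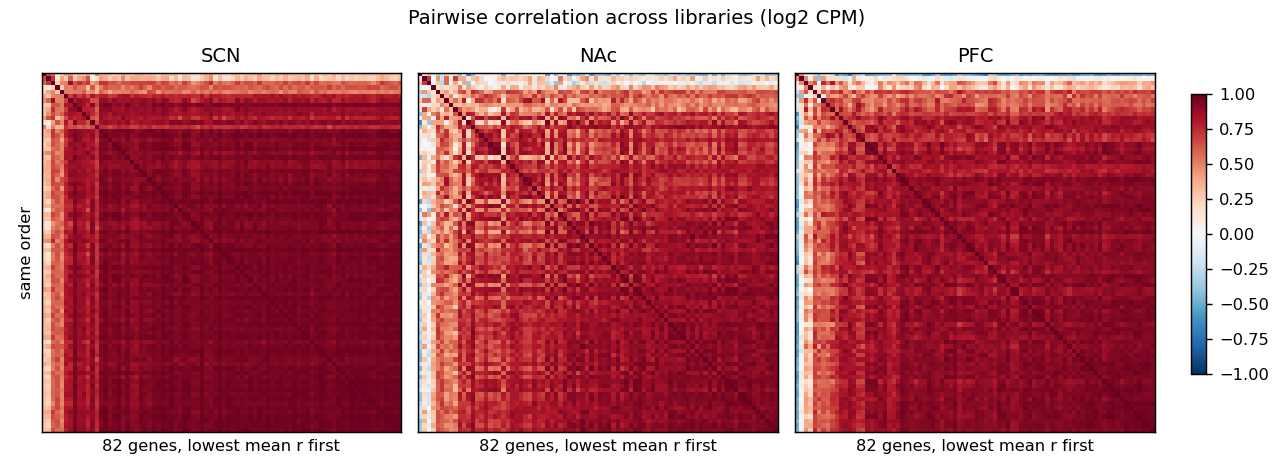
Pearson correlation between every pair of the 82 genes across the libraries of a region (log2 CPM), with genes in the same order in all panels, lowest mean correlation first. Nearly the whole of each panel is positive, with a median of 0.93 for SCN, 0.79 for NAc and 0.86 for PFC libraries, and a few genes at the upper left stay apart.

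The question of whether ribosomal protein messages move with the mitochondrial rRNA share of a library was put to each region by an edgeR fit over all rows. Almost all members rose with that share in every region. Per 10 percentage points of mitochondrial rRNA, 74 of the 82 genes rose and 0 fell in the SCN by edgeR, where 14.6% of all rows rose and 18.6% fell, and 0 members had a negative change at an unadjusted p under 0.05. In the NAc 75 rose and 1 fell, beside 29.6% and 30.2% of all rows, and 2 had a negative change at an unadjusted p under 0.05. In the PFC, 77 rose and 0 fell, beside 19.1% and 19.7% of all rows, and 1 had a negative change at an unadjusted p under 0.05. The median log2 change of the members per 10 points was 0.37 for SCN, 0.30 for NAc and 0.39 for PFC libraries, while the median of all rows lay between -0.00 and 0.01.

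All 31 small subunit genes rose in each region, as did 39, 40 and 42 of the 45 large subunit genes in the SCN, NAc and PFC. In all, 73 genes rose in all 3 regions, which at most 14.6% of SCN rows can have done, the share that rose in the SCN. The steepest were Rps12 in the SCN and PFC, with log2 changes of 0.57 (SE 0.11, edgeR adjusted p = 0.00053) and 0.56 (SE 0.07, edgeR adjusted p = 6.7e-06) per 10 points, and Rpl35a in the NAc, with 0.52 (SE 0.07, edgeR adjusted p = 1.8e-07). Rps27a, which encodes ubiquitin fused to a small subunit protein, rose by 0.53, 0.42 and 0.55 in the SCN, NAc and PFC, and Rps25, used by some viral internal ribosome entry sites, by 0.46, 0.45 and 0.49. Rpl5 and Rpl11, which bind 5S rRNA and, when free, Mdm2, rose by 0.39 and 0.36 in the SCN, 0.35 and 0.26 in the NAc and 0.41 and 0.44 in the PFC. Rps3, which also has a role in DNA repair, rose by 0.42, 0.30 and 0.47, and Rps14, a gene of the deletion 5q syndrome in human, by 0.50, 0.32 and 0.46. Rpl13a, known from the GAIT complex of translational silencing, rose by 0.39, 0.27 and 0.42, and Rpl38, linked to translation of Hox messages, by 0.42, 0.35 and 0.44. Of the stalk proteins, Rplp1 rose by 0.48, 0.36 and 0.44, Rplp2 by 0.36, 0.43 and 0.39, and Rplp0, the base on which the others sit, by 0.24, 0.17 and 0.29.

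No region called Rpl29, Rpl6, Rpl7l1 or Rps19bp1, 4 genes in all. Their log2 changes per 10 points were -0.06, 0.12, 0.10 and 0.02 in the SCN, -0.09, 0.06, 0.08 and -0.11 in the NAc, and -0.05, 0.10, 0.04 and -0.19 in the PFC. Rpl4 was the 1 member that fell in any region, by 0.12 in the NAc (SE 0.05, edgeR adjusted p = 0.024), and gave 0.03 in the SCN and 0.07 in the PFC with no call. Rpl28 was called higher in the PFC alone, Rpl10a in the NAc and PFC, and Rpl21 in the SCN and PFC, and differences between regions were not tested for the SCN. Among paralogs, Rpl22l1 rose by 0.50, 0.37 and 0.38 and its partner Rpl22 by 0.34, 0.39 and 0.39. Rpl36al rose by 0.35, 0.25 and 0.24 and Rpl36a by 0.41, 0.42 and 0.45. Rps27l rose by 0.41, 0.31 and 0.54, and Rpl7, the partner of Rpl7l1, by 0.33, 0.20 and 0.31. The slope of the NAc did not differ from that of the PFC for any member at an adjusted p under 0.05 (0.0% of all rows called in either direction, edgeR interaction). At an unadjusted p under 0.05, 3 members had a lower and 0 a higher slope in the NAc, 3.66% of members beside 9.96% of all rows.

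**Figure D3:**
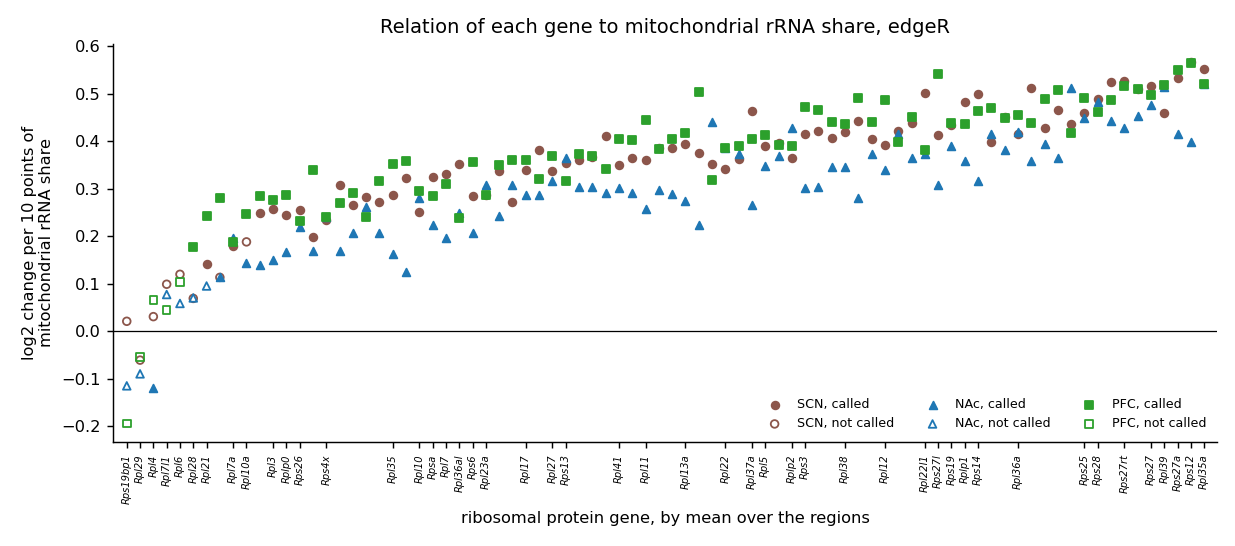
Log2 change of each of the 82 genes per 10 percentage points of mitochondrial rRNA share in the SCN, NAc and PFC, from edgeR fits over all rows, with filled symbols for an adjusted p under 0.05. The medians are 0.37, 0.30 and 0.39, and Rps19bp1, Rpl29, Rpl4, Rpl7l1 and Rpl6 sit at the left end, near or below 0. Only genes named in the text are labelled.

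The relation rested on few libraries in the SCN. Without SCN J1157 the number of members that rose there was 28 of 82 (34.1%), with 63 at an unadjusted p under 0.05, and 5.6% of all rows rose. Without SCN J1157 and SCN J1159 it was 0 by edgeR, where 0.116% of all rows rose. At an unadjusted p under 0.05 there were then 10 members, or 12.2%, and 12.2% of all rows. The median log2 change of the members per 10 points was 0.30 without SCN J1157 and 0.16 without both. In the NAc and the PFC leaving out any library left 71 to 77 and 73 to 77 members that rose, and leaving out the 2 farthest libraries left 61 and 71. The summed share of coding counts was described as well: its Pearson correlation with mitochondrial rRNA share was 0.69 for SCN (Spearman 0.46), 0.81 for NAc (0.76) and 0.91 for PFC (0.86) libraries. Within the lower and the upper range of mouse numbers it was 0.85 and 0.81 in the NAc, 0.92 and 0.87 in the PFC, and 0.18 and 0.79 in the SCN. Without the 2 farthest libraries it was 0.34 for SCN, 0.69 for NAc and 0.86 for PFC libraries. The summed share also correlated with the log2 count on coding genes at -0.75, -0.77 and -0.81 in the SCN, NAc and PFC, and the 2 measures share that denominator. Mitochondrial rRNA and coding counts come from the same total. Counted against that total, the members held 0.690% and 0.828% in NAc J965 and NAc J1019. These NAc libraries had the highest mitochondrial rRNA shares, 69.3% and 68.7%. In NAc J1140 and NAc J1162, with the lowest, 39.0% and 40.4%, the members held 0.719% and 0.902%. The part of the common total in the correlations was not tested.

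**Figure D4:**
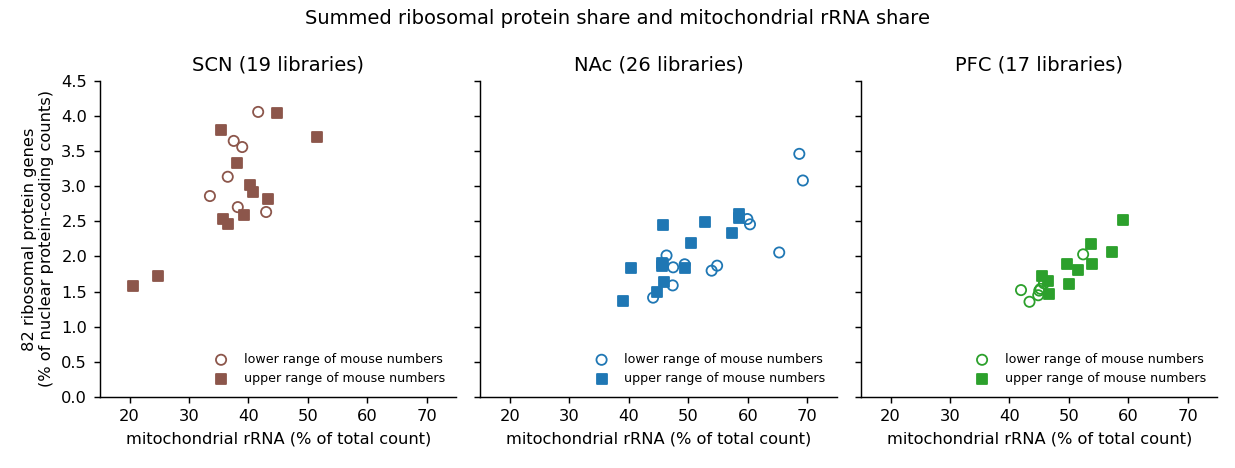
Summed share of the 82 ribosomal protein genes (percent of nuclear protein-coding counts) against the mitochondrial rRNA share (percent of the total count) in each library, by region, with open circles for the lower and filled squares for the upper range of mouse numbers. The points rise together in the NAc and PFC (Pearson 0.81 and 0.91), and in the SCN 2 libraries with rRNA shares of 20.5% and 24.8% stand below the rest.

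Other measures moved with the same axis. Rows that rose with mitochondrial rRNA share had shorter exons than rows that fell: in the PFC the rows that rose had a median exon length of 3603 bases and those that fell 6941, with 3480 and 6795 in the SCN and 4500 and 5655 in the NAc. Ribosomal protein genes are short, with a median of 1776 exon bases against 4780 over all rows of the NAc. Across all rows the Spearman correlation between exon length and the slope was -0.39 for SCN, -0.18 for NAc and -0.38 for PFC libraries, and within the 82 members it was -0.07, 0.04 and -0.02. Sums of marker lists moved as well: 6 neuron genes correlated with the summed ribosomal protein share at -0.73, -0.77 and -0.65 in the SCN, NAc and PFC, and in the NAc all 6 fell with mitochondrial rRNA share. Of 9 oligodendrocyte genes 5 fell there, and of 7 astrocyte genes 5, beside 30.2% of all rows. In the SCN 1 neuron, 0 oligodendrocyte and 0 astrocyte genes fell, beside 18.6% of all rows. In the PFC these counts were 5, 0 and 1, beside 19.7% of all rows. The part of transcript length and cell makeup in the relation was not tested.

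Other genes of the pathway are read against the shares of all rows given above, of which 14.6%, 29.6% and 19.1% rose and 18.6%, 30.2% and 19.7% fell in the SCN, NAc and PFC. A row called in all 3 regions is also called in the SCN. So at most 14.6% of SCN rows rose in all 3, and at most 18.6% fell in all 3. Without SCN J1157 and SCN J1159, 0.116% of all rows rose and 0.0914% fell in the SCN. Of 18 translation genes of the TOP class outside the ribosome, 11 rose with mitochondrial rRNA share in each region, the same 11 in all 3, and 1 fell in the NAc. They include Eef1a1, the elongation factor that delivers tRNA (0.25, 0.17 and 0.27 in the SCN, NAc and PFC), its exchange factor subunit Eef1b2 (0.37, 0.29 and 0.33) and Tpt1 (0.29, 0.36 and 0.34). Eif4b, an initiation factor, was the 1 that fell, by 0.11 in the NAc. Of 77 mitochondrial ribosomal protein genes, which serve the other ribosome of the cell, 28, 27 and 31 rose and 0, 5 and 0 fell, with medians of 0.16, 0.07 and 0.16, and in the NAc the count that rose was near the share of all rows. Of 33 genes for rRNA synthesis and ribosome assembly, 4, 3 and 3 rose and 7, 13 and 9 fell, shares of falling genes not far above those of all rows. The same 7 fell in every region: Ncl, Nol6, Nop14, Polr1a, Rrp1, Rrp12 and Ubtf. Polr1a, the largest subunit of RNA polymerase I, fell by 0.56, 0.32 and 0.57 per 10 points. Of 12 regulators of TOP messages and mTOR, Larp1, Mtor, Rptor, Tsc1 and Tsc2 fell in all 3 regions and Cnbp, Eif4e and Rheb rose in all 3. Larp1, which binds the TOP sequence and represses translation, fell by 0.64, 0.49 and 0.50, and Mtor, the kinase itself, by 0.46, 0.48 and 0.48.

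Depth gave no called member. With the log2 total count as the covariate, 0 of 82 members rose and 0 fell in each region at an edgeR adjusted p under 0.05. Of all rows, 3.28% rose and 0.332% fell in the SCN, 0.0% and 0.0% in the NAc, and 0.0606% and 0.0173% in the PFC. At an unadjusted p under 0.05, 69 members had a negative and 0 a positive change in the SCN (26.8% of all rows passed that p). In the NAc there were 2 negative and 1 positive, 3.66% of members beside 9.92% of all rows. In the PFC there were 10 and 1, 13.4% of members, near the 13.5% of all rows. The SCN value had a median log2 change of -0.52 per doubling of the total count, and its deepest libraries were SCN J1157 and SCN J1159. Without these 2 farthest libraries the median was -0.12, and 0 members passed an unadjusted p under 0.05. The summed share correlated with the log2 total count at -0.51 for SCN, -0.00 for NAc and -0.25 for PFC libraries.

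The NAc and the PFC share 1 table of counts and could be tested against each other, to ask which members differ between a reward region and cortex. Of the 82 genes, 19 were higher in the NAc and 0 lower by edgeR (1.2-fold or more, at an adjusted p under 0.05). Over all rows 23.7% were higher and 21.7% lower, so the share of members called higher, 23.2%, was near that background, while the members called lower numbered 0. DESeq2 gave 19 and 0 too, and at an unadjusted p under 0.05 edgeR gave 34 higher and 1 lower, 42.7% of members beside 66.0% of all rows. The median log2 fold change of the members was 0.17, against 0.02 for all rows, and 66 of 82 were above 0. Among the called genes were 11 of 31 small subunit genes, 7 of 45 large subunit genes and Rps27rt.

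Rps27 (ENSMUSG00000090733, GRCm38 chr3:90212522-90213651) had the largest change. Its coding CPM had a median of 176.7 over NAc libraries (99.0 to 439.1) and 112.8 over PFC libraries (87.4 to 197.5). The ranges overlapped, and NAc J1019 was the highest of all. Rps27 was 1.60-fold higher in the NAc (log2 fold change 0.68, SE 0.13, edgeR adjusted p = 1.2e-05), and its level was above that of the PFC in 15 of 17 mice with both regions. Rps27rt (ENSMUSG00000050621, chr9:114982366-114982739) had a median of 33.8 coding CPM over NAc libraries (19.1 to 109.0) and 24.2 over PFC libraries (17.0 to 40.3) and was 1.46-fold higher (log2 0.55, SE 0.14, edgeR adjusted p = 0.00055). The 2 rows are not independent: 90.3% of the 75-base windows of Rps27rt transcripts occur in Rps27, and 42.4% of those of Rps27 occur in Rps27rt, so reads could be split between them.

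Rpsa (ENSMUSG00000032518, chr9:120127689-120132369), whose coding CPM is given above, had overlapping ranges too, with the NAc median just under the highest PFC library. The NAc had the higher value in 16 of 17 mice, and the fold change was 1.41 (log2 0.49, SE 0.08, edgeR adjusted p = 8.3e-07). Rpl27, a large subunit protein, had a median of 111.1 coding CPM over NAc libraries (80.1 to 278.5) and 88.5 over PFC libraries (68.0 to 120.3), 1.37-fold higher (log2 0.45, SE 0.11, edgeR adjusted p = 0.00032). Rplp1 had a median of 1083 over NAc libraries (700.5 to 2703) and 780.2 over PFC libraries (648.0 to 1196), also 1.37-fold higher (log2 0.45, SE 0.11, edgeR adjusted p = 0.00037). Of the other stalk proteins, Rplp2 was 1.31-fold higher (edgeR adjusted p = 0.0016), and Rplp0 gave a log2 fold change of 0.02 (SE 0.08, edgeR adjusted p = 0.85). The difference between stalk proteins was not tested. Rps26 and Rps6, in 16 of 17 mice each, were 1.36-fold and 1.28-fold higher, and Rps19, mutated in Diamond-Blackfan anemia, 1.27-fold.

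At the other end, Rpl7a, a large subunit protein, passed the adjusted p with a log2 fold change of -0.21 (SE 0.07, edgeR adjusted p = 0.013) but not the fold change. Its coding CPM had a median of 49.5 over NAc libraries (30.7 to 68.0) and 56.9 over PFC libraries (47.0 to 72.3), and the ranges overlapped. Rpl10a and Rpl38 gave -0.10 and -0.11 with no call. Apart from Rps27rt, given above, the paralogs were close to 0, with -0.08 for Rpl7l1, 0.05 for Rpl22l1, -0.07 for Rpl36al and -0.05 for Rps27l, none called. Outside the name rule, Fau gave 0.20 and Rack1 0.01 with no call. Of the 18 further TOP genes 3 were higher, Eef1b2, Eef1a1 and Npm1, and of the 33 assembly genes 4 were lower, Bop1, Eif6, Fbl and Wdr12. The regulators Eif4ebp2 and Rheb gave log2 fold changes of 0.47 and -0.48, and of the 77 mitochondrial ribosomal proteins 8 were higher and 7 lower. Each of these counts was a smaller share of its list than that of all rows, 23.7% higher and 21.7% lower.

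**Figure D5:**
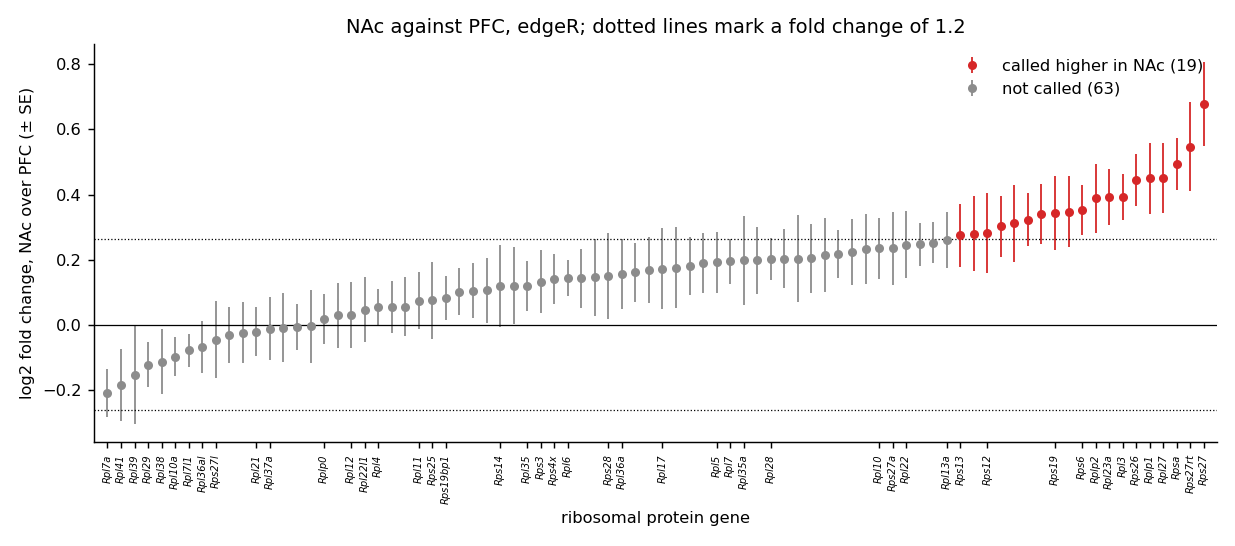
Log2 fold change of each of the 82 genes, NAc over PFC, with its SE, from the edgeR comparison of 26 NAc and 17 PFC libraries; dotted lines mark a fold change of 1.2. The 19 called genes, in red, all lie above 0, from 0.27 for Rps13 to 0.68 for Rps27, and no gene lies below the lower line. Only genes named in the text are labelled.

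The number of members called in this comparison changed with the libraries that entered it and with the rRNA share as a term of the fit. With the 17 mice that have both regions and the mouse as a replicate block, 36 members were higher (43.9%, beside 24.9% of all rows) and 0 lower, all 19 of the main comparison among them, and without the block the same mice gave 41 (50%, beside 25.9%) and 0. In the lower range of mouse numbers 38 were higher (46.3%, beside 24.5% of all rows) and 0 lower, with a median log2 fold change of 0.33. In the upper range 8 were higher (9.76%, beside 21.9% of all rows) and 3 lower, with a median of 0.04. The 3 lower genes were Rpl39 (log2 -0.51), Rpl41 (-0.39) and Rpl7a (-0.33). The region differences of the 2 ranges did not differ for any member at an adjusted p under 0.05 (0.0% of all rows in either direction, edgeR interaction), and 26 of 82 had an unadjusted p under 0.05, all with a lower NAc over PFC fold change in the upper range, beside 19.7% of all rows in either direction. The mitochondrial rRNA share differed between the ranges too: its median was 54.4% in the NAc and 45.0% in the PFC in the lower range, and 45.9% and 50.8% in the upper range. With that share as a term of the fit, 9 members were higher (11%, beside 22.6% of all rows) and the same 3 lower. The 9 that stayed higher were Rpl23a, Rpl27, Rpl3, Rplp1, Rps26, Rps27, Rps27rt, Rps6 and Rpsa, and Rpsa had a log2 fold change of 0.42 there.

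Mice differed in which region was higher. The number of members with a higher log2 CPM in the NAc of a mouse than in its PFC was over 41 of 82 in 13 of the 17 mice, with a median of 67, and ran from 1 in J1178 to 80 in J1014 and J965. Across these 17 mice the summed share of the NAc correlated with that of the PFC at -0.39 (Spearman -0.52), and the mitochondrial rRNA shares at -0.43 (Spearman -0.48). Marker genes of other cell types differed between the regions as well. All 9 oligodendrocyte genes were higher in the NAc, with sums of 0.190 to 0.411% of coding counts against 0.0390 to 0.120% in the PFC. Of 6 neuron genes 4 were lower there, with sums of 0.209 to 0.545% against 0.472 to 0.613%. The part of cell makeup in the ribosomal protein differences was not tested, and fewer cells of a type and less RNA per cell cannot be told apart in bulk tissue.

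Counting also bears on single members. Of the 82 genes, 79 share at least 1 window of 75 bases, the read length, with another annotated gene, and 25 share over 50% of their windows. Rps6 shares 84.1% of its windows with other genes, Rpl23a 81.7%, Rpl7a 77.4% and Rpl3 64.0%, so their levels are uncertain where the authors' counting could split or drop such reads. The tables also hold 45 rows (NAc and PFC) and 35 rows (SCN) named as ribosomal protein pseudogenes. Exons of 38 members overlap another gene, over 20% of the exon bases in 11, among them Rpl35 with 66.2% and Rpl23a with 62.3%.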

How the data were processed

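RNA of tissue punches from 62 samples was sequenced. The authors prepared libraries from 10 ng of RNA with a Smart-Seq HT kit, sequenced paired ends of 75 bases, aligned them to GRCm38 with HISAT2 2.1.0 after FastQC 0.11.7, counted reads per gene with HTSeq 0.10.0 in union mode, and removed low and Y-linked genes. The strand setting is not given in the sources used here. They deposited raw counts, 1 table for the SCN and 1 for the NAc and PFC. Depth is given per region in the report, and p-values measure the spread between mice of a region.

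Counts were fitted over all rows with edgeR 4.0.16 in R 4.3.3 (quasi-likelihood test, TMM, filterByExpr) and adjusted by Benjamini-Hochberg. Slopes were called at an adjusted p under 0.05, and region differences at the same p where they also reached 1.2-fold. The fits recovered known changes in simulated counts of independent genes with a random covariate. The members here vary together and 2 SCN libraries stand apart, which that check does not cover. DESeq2 1.42.0, other scalings and filters, covariates, mouse number ranges (up to J1021 and from J1140, possible batches) and left-out libraries were alternatives, and leaving out single libraries, SCN J1199 with SCN J1140, and the region by range interaction were added after seeing the data. Annotation was GENCODE M21 and promoters RefSeq GRCm38.p6. Python 3.11.15, numpy 2.4.6, pandas 2.3.3, scipy 1.17.1 and matplotlib 3.10.9 did the rest.

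The members and gene lists were chosen with earlier results of these data known. Genes named are paralogs and their partners, stalk proteins and Rpsa, X-linked members, 11 core members with known roles, the 5 called members with the largest change in each direction, the 3 most and least variable and the 3 least correlated members of each region, and Fau and Rack1. Some genes under this rule are not reported here. Others were chosen after their values were seen. NAc and PFC libraries with the same number are from the same animal and pair the samples. The correlation of their deviations from the region means was -0.449 to 0.272 over 17 mice (median 0.006), over 0.1 in 7.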

Additional observations from a re-analysis of the deposited data

How the results depend on the processing

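For the comparison of the NAc with the PFC, the 19 members called higher became 36 with the replicate block, 41 without that block in those 17 mice, 38 within the lower mouse number range, 8 within the upper and 9 with the mitochondrial rRNA share as a term, and the 0 called lower became 3 in the upper range and 3 with that term. Leaving out each library in turn gave 15 to 25 higher and 0 lower. DESeq2, its size factors, other filters, leaving out mitochondrial and rRNA rows, the range and depth gave 19 to 21 and 0. The cause of these differences was not tested. The relation to mitochondrial rRNA share held for 74 members in the SCN, 28 without SCN J1157 and 0 without the 2 farthest libraries, and leaving out each library gave 28 to 75. In the NAc and PFC no alternative moved the count by over 1.5 times, except that the 1 member that fell in the NAc was 0 with the range as a term and 0 to 2 over left-out libraries, and the 0 in the PFC 0 to 1. For depth, the 0 that fell became 1 in the SCN without SCN J1199 and SCN J1140 and 2 in the PFC with both covariates. Correlations of the summed share moved in the SCN to 0.18 in the lower range and 0.34 without the 2 farthest libraries for mitochondrial rRNA and to -0.20 and -0.13 for depth, in the NAc to 0.69 without the 2 farthest, and in the PFC to 0.87 in the upper range and 0.86 without the 2 farthest for mitochondrial rRNA and to -0.85 in the lower range for depth. Spread and covariance moved by less than the spread between members with coding counts as the scale or a prior count of 0.5. All 82 members passed the filter on low counts.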
